A study of Mus musculus with 10 samples.

Results

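Resident alveolar macrophages (RAMs) of normal mouse lung were described by themselves, from 5 of the 10 libraries of the series. The 5 libraries were those titled as normal lung, replicates 1 to 5, and are called libraries 1 to 5. The cells came from wild type C57BL6/J mice of 8 to 10 weeks of age and were sorted as live CD45+ F4/80+ LY6C- MRC1+ FSC high cells that were CD11C+ and CD11B-. The study's methods describe samples as single mice or pools of metastases, so each library of normal lung is taken as 1 mouse, and the spread between libraries holds differences between mice and in handling together. The other 5 libraries, macrophages sorted from lung metastases, were not used, and nothing below compares the cell types. Lungs were perfused with PBS and digested with Liberase in the presence of alpha-amanitin and actinomycin D, agents that block transcription, and cells were sorted straight into the buffer for RNA extraction. With 1 group there is no contrast to test, so every result is a level, an SD over 5 libraries or a count of genes.

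Alveolar macrophages live on the air side of the alveolus, where they take up inhaled particles, dead cells and used surfactant. Their development and upkeep depend on GM-CSF signalling and on PPARG, the nuclear receptor that drives their genes for lipid handling. They renew locally by division, and among macrophages they stand out by a high level of CD11C and a low level of CD11B on the surface.

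Each library held 43892257 to 61582825 counts on genes once the lines that name no gene and Rn45s, the 45S ribosomal RNA precursor, were left out. Rn45s held 12.7% to 15.2% of the counts on genes. Reads that the counting step assigned to no annotated feature made up 48.7% to 50.8% of everything in the count files. Between 14972 and 15805 genes had a count. Levels of the same gene in different libraries are given as CPM, the share of these gene counts scaled to 1e+06, and levels of different genes as the authors' FPKM, a like share that also allows for transcript length. A total of 8419 of 24537 genes had a mean of at least 10 CPM, and they held 98.2% of the counts. The genes next to that threshold were Borcs7 at 10.0055 CPM, just inside it, and Ppp1r35 at 9.99882 CPM, just outside. In the shallowest library 10 CPM is 439 counts, so counting error alone was small for genes at that level, but not for the markers under 1 CPM given below, which rest on few counts. A count of 0 allows up to 3 counts, which is 0.0487 to 0.0683 CPM by library; this floor and the counting SDs below cover counting error only, because the reads carry no molecular identifiers and several may stem from 1 molecule.

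The 4 markers taken for these cells were present in all 5 libraries. Itgax, which encodes CD11C, was at 1148, 1014, 950.1, 1034 and 1187 CPM in libraries 1 to 5, with a mean of 228 FPKM. Marco, a scavenger receptor for particles and bacteria, was at 332, 378, 402, 564 and 303 CPM. Library 4 was the high one for Marco, and the SD of log2(CPM+1) was 0.34, or 0.18 without library 4. Pparg was at 276, 234, 175, 198 and 198 CPM, highest in library 1, with an SD of 0.25. Epcam, an adhesion molecule of epithelium that is also known on alveolar macrophages, was at 109, 82.3, 80.4, 52.2 and 89.8 CPM, lowest in library 4. The other antigens of the gate were read by their mean FPKM. The mean of Mrc1, the mannose receptor, was 418 FPKM, that of Ptprc, which encodes CD45, 154 FPKM, and that of Adgre1, which encodes F4/80, 60.0 FPKM. Itgam, which encodes CD11B, was at 13.5 FPKM, well under Itgax in every library. Ly6c1 and Ly6c2 stayed at or under 0.325 CPM. Of these antigens Mrc1 was the steadiest, at 2719 to 2946 CPM. Siglecf, a lectin shared by alveolar macrophages and eosinophils, was at 128 FPKM, and Car4, a membrane carbonic anhydrase, was at 245, 209, 205, 405 and 255 CPM, again highest in library 4. Xist, the RNA of the inactive X chromosome, was at 2945 to 3566 CPM, while the Y-linked Eif2s3y, Kdm5d and Uty had a count of 0 in all 5 libraries and Ddx3y reached 0.199 CPM in library 4 alone.

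**Figure D1:**
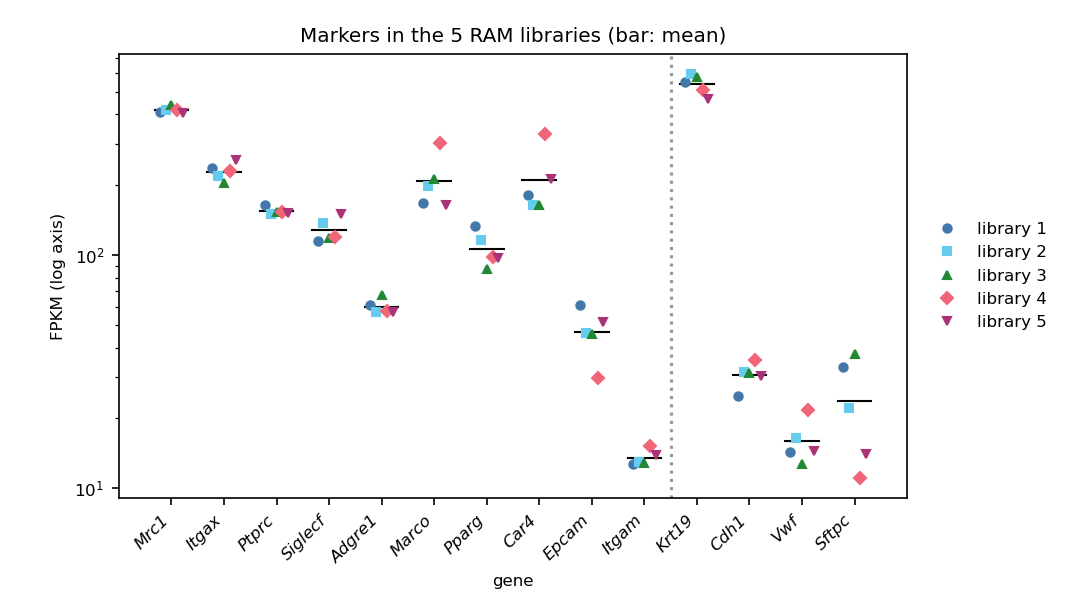
FPKM of 14 genes in each of the 5 RAM libraries on a log axis, with symbols for libraries and a bar for the mean. Genes left of the dotted line are antigens of the sort and known alveolar macrophage genes, and genes right of it are markers of epithelium or endothelium. Mrc1 varied little, while Marco and Car4 were highest and Epcam lowest in library 4.

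Markers of other cells were uneven. The 18 monocyte markers summed to 39086.5 to 45468.5 CPM, and 11 of them reached 10 CPM. For scale, Lyz2, which is described below, was by itself at 27723 to 35633 CPM. None of the 18 lymphocyte markers in the table reached a mean of 10 CPM, and their sum was 8.70 to 28.3 CPM per library. The 10 markers of mast cells and basophils summed to 1.90 CPM at most, and the 14 markers of erythrocytes and platelets to 11.5 to 23.3 CPM. Endothelial and stromal markers summed to 159.7 to 249 CPM, of which Vwf, von Willebrand factor, gave 135 to 219.7 CPM. The other 21 genes of that list had a mean under 10 CPM, so Vwf was read without the rest of its cell type. Epithelial markers summed to 721 to 1074 CPM, a list that holds Epcam and also Lyz1, which is described below. Among them Krt19, a keratin, was at 403 to 532 CPM and Cdh1, E-cadherin, at 117 to 159.5 CPM, which in FPKM are means of 540.3 and 30.6. Sftpc, the surfactant protein of alveolar type II cells, had a mean of 23.6 FPKM and was at 22.7, 14.5, 24.4, 7.15 and 9.16 CPM. Libraries 4 and 5 were the low ones for Sftpc, and its SD of 0.73 was among the 50 highest. Of 20 markers of neutrophils and eosinophils 6 reached 10 CPM, among them Ear1 and Siglecf, which alveolar macrophages are known to express. In that list 13 had means under 1 CPM, and Ly6g, Elane and Prg2 had a count of 0 in all libraries. Where a marker comes from cannot be told from bulk RNA, in which fewer cells of a type and less RNA per cell give the same value.

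The counts were spread over many genes: the 20 genes with most counts held 12.3% ± 0.255 (SD, n = 5) and 703 genes together held 50% of all counts. Lyz2, lysozyme M, came first at 35633, 29227, 27723, 29417 and 35008 CPM. It was high in libraries 1 and 5, by at most 1.29 times over the lowest. Malat1, a nuclear noncoding RNA, followed at 11551 to 13220.2 CPM, then Chil3, the chitinase-like protein Ym1, at 8060.3 to 10918 CPM, and Actb, beta-actin, at 7832 to 8730.4 CPM. The rest of the 20 were Lars2, Fth1, Ctsd, Lrp1, Cd44, Laptm5, Ahnak, Abcg1, Xist, Mpeg1, Lcp1, Ctss, Iqgap1, Tmsb4x, Msn and Vim. They include lysosomal proteases (Ctsd and Ctss, cathepsins D and S), an endocytic receptor (Lrp1), the hyaluronan receptor Cd44, a cholesterol exporter (Abcg1), a pore protein directed at ingested bacteria (Mpeg1), and genes of the actin cortex (Lcp1, Iqgap1, Tmsb4x, Msn). Lars2, a mitochondrial leucyl-tRNA synthetase, was at 5462, 7408, 6906, 6353 and 5732 CPM in libraries 1 to 5. Rn45s held 12.7%, 14.6%, 15.2%, 14.0% and 13.5% of the counts on genes in the same order. Whether ribosomal reads add to the Lars2 count was not tested.

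Per length the order differed. The 20 genes with the highest mean FPKM all had transcripts under 200 bases, and 19 of them were listed at 0 in some library, so they were set aside. Among longer transcripts, a limit chosen after the values were seen, the leading genes were Lyz2, Fth1, Chil3, Tmsb4x, Actb, Ctsd, B2m, Ctss, Pfn1 and Ftl1. Fth1 and Ftl1, the ferritin chains that store iron, were at means of 7560.4 and 2078 FPKM, Chil3 at 6879, Tmsb4x, an actin-binding peptide, at 5602, Ctsd at 3060.4 and B2m, the shared chain of MHC class I, at 2557. Lyz2 was at 24495 to 31539 FPKM in libraries 2 to 5 but was listed at 0 in library 1, where its CPM was the highest of the 5. The 0 is not read as a level, and no mean is given. Ear1 and Ear2, ribonucleases of the eosinophil-associated family, had means of 1405 and 1702 FPKM but of 922 and 48.8 CPM. Their longest transcripts share 96.4% of 717 aligned bases, and the CPM count uniquely placed reads, so how their reads divide is uncertain.

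Read by function, genes of the airspace, the lysosome and lipid handling took the following shares of all gene counts. The 66 alveolar surface and secreted markers held 8.96% ± 0.406 (SD, n = 5), led by Lyz2 and Chil3. The 53 lysosomal hydrolases and pumps held 2.95% ± 0.163, led by Ctsd, Ctss, the proton pump subunit Atp6v0d2 (1701 to 2100.0 CPM) and Psap, the precursor of the saposins. The 52 genes of surfactant lipid uptake and storage held 1.75% ± 0.0349, and 44 of them reached 10 CPM. In this list Abcg1 was at 3250.5 to 3602 CPM, Lpl, lipoprotein lipase, at 2973, 2062, 1910.1, 2742 and 2447 CPM, Lipa, the lysosomal acid lipase, at 979.5 to 1559.9 CPM, and Plin2, the coat protein of lipid droplets, at 893 to 1175 CPM. Lpl and Lipa varied most among these 4 genes, with SDs of 0.27 and 0.26. Of 26 factors that set alveolar macrophage identity 22 reached 10 CPM. Csf2rb, the shared beta chain of the GM-CSF receptor, was at 1546, 1496, 1565, 1516 and 1568 CPM, with an SD of only 0.03. Bhlhe41, a repressor that guards self-renewal and identity, was at 266 to 377 CPM. Proliferation genes were read in all libraries: 48 of 55 cell cycle genes reached 10 CPM, with Mki67, the marker Ki-67, at 825, 868, 846, 668 and 789.5 CPM and Top2a, topoisomerase II alpha, at 219, 235, 209.7, 158 and 239.6 CPM. Library 4 was the lowest for both.

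The 5 libraries differed by more than counting error. Over the 8419 genes the median SD of log2(CPM+1) was 0.18, with the 5th and 95th percentiles at 0.07 and 0.43, while counting alone would give a median SD of 0.03. The SD was over 3 times its counting error in 93.3% of genes. The common biological coefficient of variation from edgeR was 0.168. The SD was at least 0.5 in 206 of 8419 genes, which is 2.45%, and at least 1 in 7, and the highest library was at least 2 times the lowest in 682. Spread fell with level: the median SD was 0.29 at 10 to 20 CPM and 0.11 at 1000 CPM or more. The variable genes were accordingly low, with a median mean of 14.5 CPM against 46.4 CPM for all 8419. Among the 2216 genes with a mean of at least 100 CPM, 7 had an SD of at least 0.5, and they were Ctsk, H2-Ab1, Slc1a2, H2-Aa, Cd24a, Cd74 and Vdr, so that 3 of the 7 belong to MHC class II. The steadiest genes at that level were Abhd12, a lipase (412 to 423 CPM, SD 0.02), Ctnnd1, p120 catenin (495 to 509.6 CPM), and Rab1a, a GTPase of transport from the endoplasmic reticulum (571 to 588 CPM). Among the other 7 of the 10 steadiest were Phf3, Actr3, Arhgef6, Srsf5, Rab14 and Chp1, with SDs up to 0.03.

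**Figure D2:**
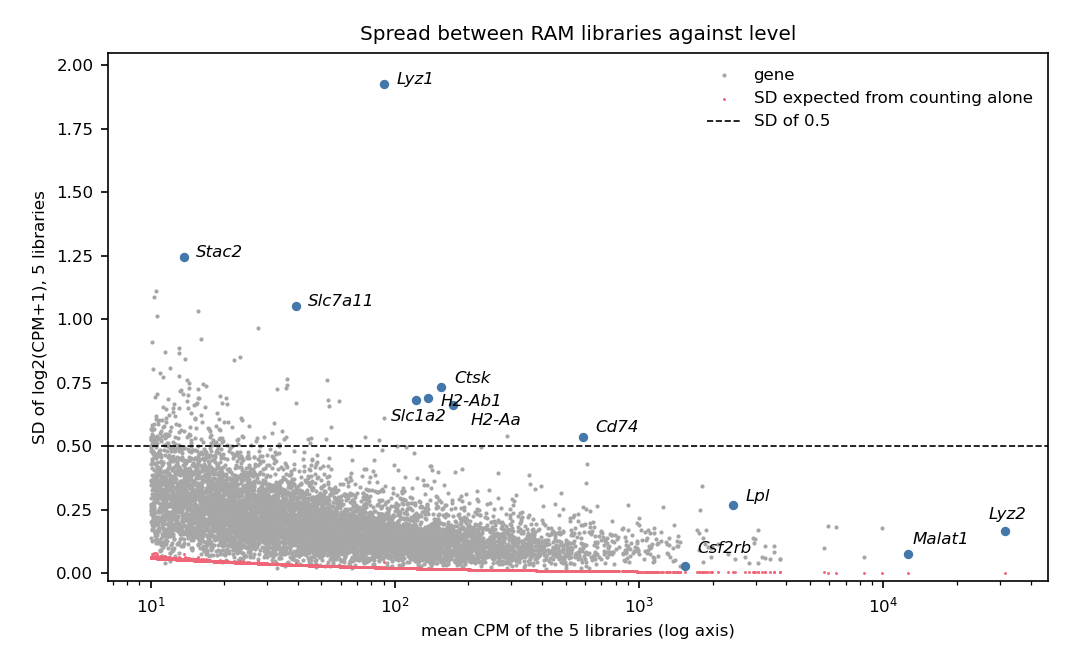
SD of log2(CPM+1) over the 5 RAM libraries against mean CPM on a log axis, 1 grey point per gene for 8419 genes, with red points for the SD that counting alone would give and a dashed line at 0.5. Spread falls with level, and Lyz1, Stac2 and Slc7a11 stand far above genes of like level, as do Ctsk, H2-Ab1, H2-Aa and Cd74 among more abundant genes.

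Libraries 1 to 3 lay nearer to each other than any pair that held library 4 or 5. The root mean square difference of log2(CPM+1) between 2 libraries was 0.281 (libraries 1 and 2) to 0.301 (libraries 1 and 3) within libraries 1 to 3. In pairs that held library 4 or 5 it was 0.330 (libraries 1 and 5) to 0.378 (libraries 3 and 5). In a principal component analysis the first component held 36.2% of the variance and put libraries 1, 2 and 3 at 3.55, 10.1 and 13.9 and libraries 4 and 5 at -12.4 and -15.2. The second held 28.2% and put library 4 at -17.6 and library 5 at 15. The header of the FPKM table lists libraries 1 to 3 before libraries 4 and 5, with other samples between them. The labels do not say what that order means. Libraries 4 and 5 were both below all of libraries 1 to 3 in 63 of the 206 variable genes, where 15.4% of all genes showed this, and both above in 35 of 206, where 11.4% of all genes did. Over all genes these were 1297 below and 960 above, and with TMM scaling the same split was 944 below and 1329 above, so its balance turned with the scaling.

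The gene with the largest spread was Lyz1, lysozyme P, at 14.9, 34.3, 16.6, 16.3 and 368 CPM. Library 5 stood 22.4 times over the median of the others, and the SD was 1.93, or 0.53 without library 5. The authors' FPKM of Lyz1 did not show this, at 10.8, 10.3, 12.5, 12.1 and 10.6. Lyz1 (chr10:117287797-117292868, minus strand, GRCm38) lies beside Lyz2 (chr10:117277331-117282321, minus strand), and their longest transcripts share 95.8% of 1264 aligned bases, so the Lyz1 value of library 5 is uncertain. For the others the 2 units gave a like picture: the highest library was the same in FPKM for 46 of the 50 most variable genes and for 187 of the 206.

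**Figure D3:**
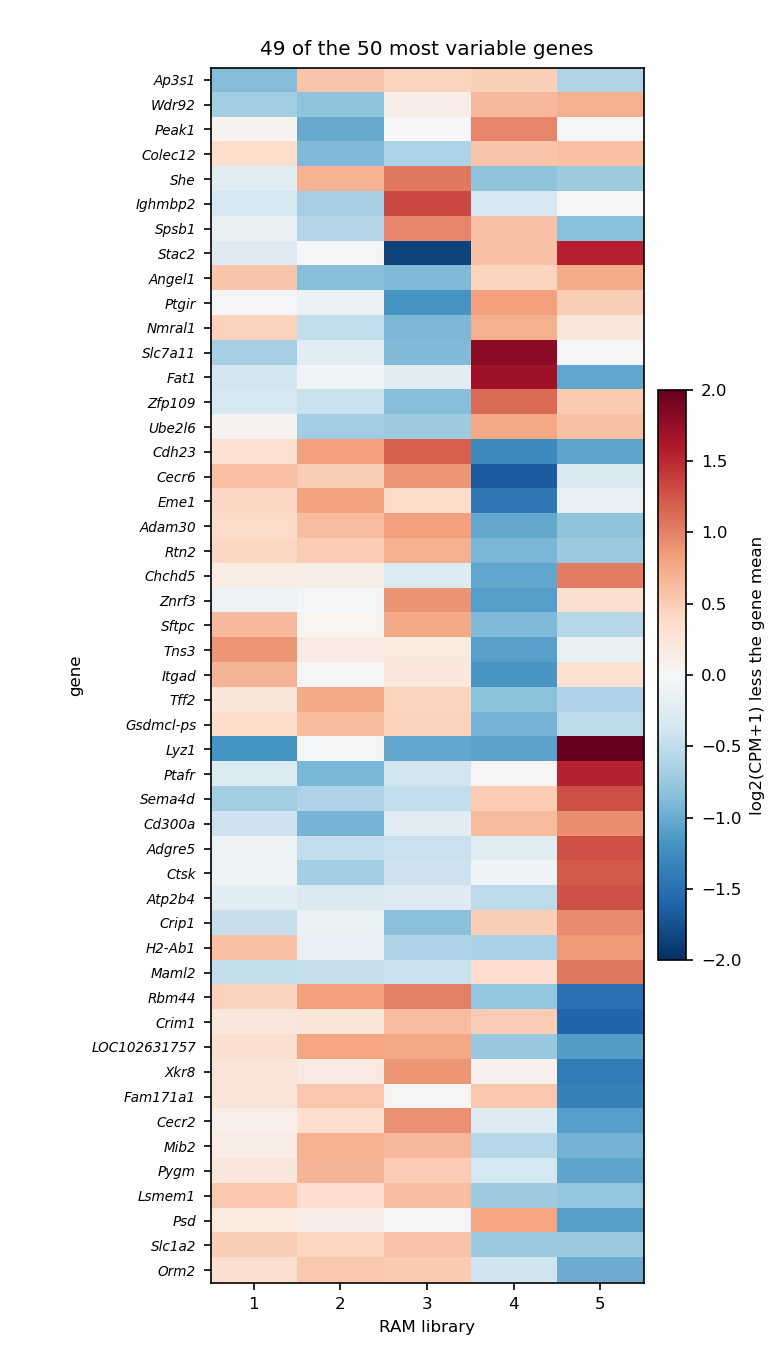
Of the 50 genes with the largest SD 49 are shown, 1 per line, against the 5 RAM libraries, coloured by log2(CPM+1) less the mean of the gene, from blue (low) to red (high) with the scale ending at 2 on either side. Genes are ordered by the library farthest from the other 4, and blocks of red or blue show in libraries 4 and 5.

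To see which genes varied together, each of the 200 most variable genes was assigned to the library farthest from the median of the other 4. Correlations were not computed over 5 libraries. Library 4 or 5 was the farthest for 132 of the 200: library 4 was low for 50 and high for 16, and library 5 was low for 35 and high for 31. Over all 8419 genes library 4 was the farthest and low in 13.9% and high in 9.69%, and library 5 low in 13.8% and high in 11%. As a share of the 200 these sets were 25%, 8%, 17.5% and 15.5%, so the set high in library 4 was below its share of all genes and the other 3 above. Library 3 was low for 20 of the 200 (10%, against 9.93% of all genes) and high for 15 (7.5%, against 9.55%). Library 2 was low for 10 and high for 10, and library 1 low for 10 and high for 3. These 4 sets were 5%, 5%, 5% and 1.5% of the 200, all under their shares of all genes, which were 7.91%, 8.04%, 7.66% and 8.50%.

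Library 5 was the farthest and high for 31 genes, and 4 of the most variable follow. Ctsk, cathepsin K, a collagen-degrading protease, was at 132, 85.8, 102, 131 and 324 CPM (chr3:95499256-95509362, plus strand). Library 5 was 2.78 times the median of the others (the SD of 0.73 fell to 0.30 without it), and the FPKM of 193 in library 5 against 46.0 to 73.3 gave the same order. Adgre5, the adhesion receptor CD97, was at 29.6, 22.3, 23, 26.7 and 79.4 CPM. Atp2b4, a plasma membrane calcium pump, was at 26.8, 25.6, 26.4, 21.8 and 78.4 CPM. In both, the other 4 libraries lay close together and library 5 was about 3-fold higher, by 3.19 and 3.02 times their median. Ptafr, the receptor of platelet-activating factor, was at 10.7, 6.45, 9.95, 13.3 and 39.8 CPM. A further group was raised in libraries 4 and 5 alike. Sema4d, a semaphorin, was at 6.47, 6.85, 7.58, 16.1 and 28.4 CPM, Cd300a, an inhibitory receptor, at 23.8, 16.3, 27.8, 50.4 and 61.8 CPM, and Crip1, a LIM domain protein, at 21.2, 26.7, 16.0, 42.1 and 58.1 CPM. Cd24a, a surface glycoprotein, was at 214, 212, 205, 327 and 485 CPM, and Ccl22, a chemokine for CCR4, at 15.9, 13.9, 14.6, 31.2 and 32 CPM. For each of these 5 genes both libraries were above the other 3.

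The reverse pattern was seen in Cdh23, a cadherin, at 10.5, 15.5, 20.4, 2.83 and 3.51 CPM, and in Rbm44, an RNA-binding protein, at 11.8, 15.4, 17.8, 4.36 and 2.32 CPM. Slc1a2, a glutamate transporter, was at 157, 151, 168, 66.6 and 66.4 CPM. Rtn2, a reticulon, was at 64.2, 68.6, 78.7, 24.9 and 28.2 CPM. In all 4 genes libraries 4 and 5 lay below the other 3 without overlap, as they did for Sftpc. A few genes were low in 1 library alone. Crim1, a transmembrane protein that binds bone morphogenetic proteins, was at 10.5, 10.7, 14.2, 13 and 2.26 CPM, and Xkr8, the scramblase that exposes phosphatidylserine in apoptosis, at 14.7, 14.0, 23.3, 13 and 3.99 CPM. Library 5 was the low one for both.

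Smaller sets belonged to libraries 1 to 3. Ap3s1, a subunit of the AP-3 adaptor of lysosomal sorting, was at 29.4, 80.5, 74.8, 76.0 and 35.8 CPM, low in library 1 and also in library 5. Ap2a1, a subunit of the AP-2 adaptor of endocytosis, was at 89.6, 37.2, 36.3, 43.2 and 54.3 CPM, high in library 1. Mcm8, a helicase of DNA repair, was at 7.89, 19.8, 8.14, 6.62 and 9.14 CPM and Gtse1, a mitotic protein, at 11.4, 20.1, 11.8, 6.95 and 8.27 CPM, both high in library 2. Ighmbp2, a helicase, was at 8.64, 6.79, 29.7, 8.75 and 11.5 CPM, high in library 3. Stac2, an adaptor of calcium channels, had the largest spread after Lyz1, at 8.36, 10.1, 2.12, 15.8 and 31.8 CPM, lowest in library 3 and highest in library 5.

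Of the gene lists read, MHC class II had the largest median SD. These genes encode the alpha and beta chains that present peptides to CD4+ T cells (H2-Aa, H2-Ab1, H2-Eb1), the invariant chain that guides them (Cd74), the chaperones that load peptide (H2-DMa, H2-DMb1, H2-DMb2) and the transactivator that switches the family on (Ciita). Of 11 members 8 reached 10 CPM, their median SD was 0.52 against 0.18 over all genes, and 4 of the 8 had an SD of at least 0.5. Cd74 was at 751, 480.5, 427, 380.3 and 900.2 CPM with an SD of 0.54. H2-Aa was at 226, 148, 108, 98.2 and 287 CPM with an SD of 0.66. H2-Ab1 (chr17:34257689-34269419, plus strand) was at 186, 110.3, 80.2, 78.9 and 225 CPM with an SD of 0.69. Libraries 1 and 5 were the high ones for all 3 genes, and library 4 the low one. H2-Eb1 was at 30.0, 14.5, 15.7, 18.2 and 39.5 CPM with an SD of 0.60, again high in libraries 1 and 5. The chaperones moved less. H2-DMa was at 632, 530.1, 504, 481 and 542 CPM with an SD of 0.15 (0.08 without library 1), and H2-DMb1 at 67.5, 49.7, 45.1, 38.1 and 55.2 CPM with an SD of 0.30. H2-DMb2, at 16.9, 15.6, 12.1, 9.66 and 12.4 CPM, is a near copy of H2-DMb1 and its share of the reads is uncertain. Ciita, at 21.5, 11, 10.6, 7.80 and 13 CPM, was highest in library 1 and lowest in library 4. All 8 genes were highest in library 1 (4 genes) or library 5 (4 genes), and 7 of the 8 were lowest in library 4. Over all 8419 genes the highest library was library 1 in 19.1%, library 2 in 19.0%, library 3 in 21.2%, library 4 in 19.3% and library 5 in 21.4%, and the lowest was library 1 in 15.6%, library 2 in 17%, library 3 in 19.0%, library 4 in 24.0% and library 5 in 24.4%. The remaining members, H2-Oa, H2-Ob and H2-Eb2, had means under 10 CPM, with at most 3.38 CPM in any library.

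The promoter windows of H2-Aa and H2-Eb1 are shown because these chains were among the most variable genes of the list and their windows hold the Y box, the inverted CCAAT element that is known from MHC class II promoters. Each window runs from 250 bases before to 50 bases after the start site in RefSeq (GRCm38.p6), 5′ to 3′ on the strand of the gene, at chr17:34287774-34288073 (minus strand) and chr17:34305617-34305916 (plus strand). Capitals mark CTGATTGG, the letters searched on both strands.
H2-Aa: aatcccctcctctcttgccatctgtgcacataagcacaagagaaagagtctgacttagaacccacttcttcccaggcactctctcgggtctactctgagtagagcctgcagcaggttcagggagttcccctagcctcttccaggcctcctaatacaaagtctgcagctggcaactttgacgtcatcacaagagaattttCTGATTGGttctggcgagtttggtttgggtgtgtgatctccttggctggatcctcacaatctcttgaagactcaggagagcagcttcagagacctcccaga
H2-Eb1: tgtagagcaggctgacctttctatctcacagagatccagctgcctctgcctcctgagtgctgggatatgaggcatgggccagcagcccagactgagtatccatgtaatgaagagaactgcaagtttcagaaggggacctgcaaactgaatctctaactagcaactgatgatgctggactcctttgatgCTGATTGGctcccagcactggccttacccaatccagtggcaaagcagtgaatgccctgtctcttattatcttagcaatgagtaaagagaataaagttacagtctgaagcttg
The match begins at position -51 in H2-Aa and -62 in H2-Eb1, counted from the start site. Of the 8 members 5 had a window, with 6 windows among them. Of these 6 windows 2, those of H2-Aa and H2-Eb1, held these letters, as did 4.10% of 32851 windows of this length. A match is a description of the letters and not of a bound site.

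**Figure D4:**
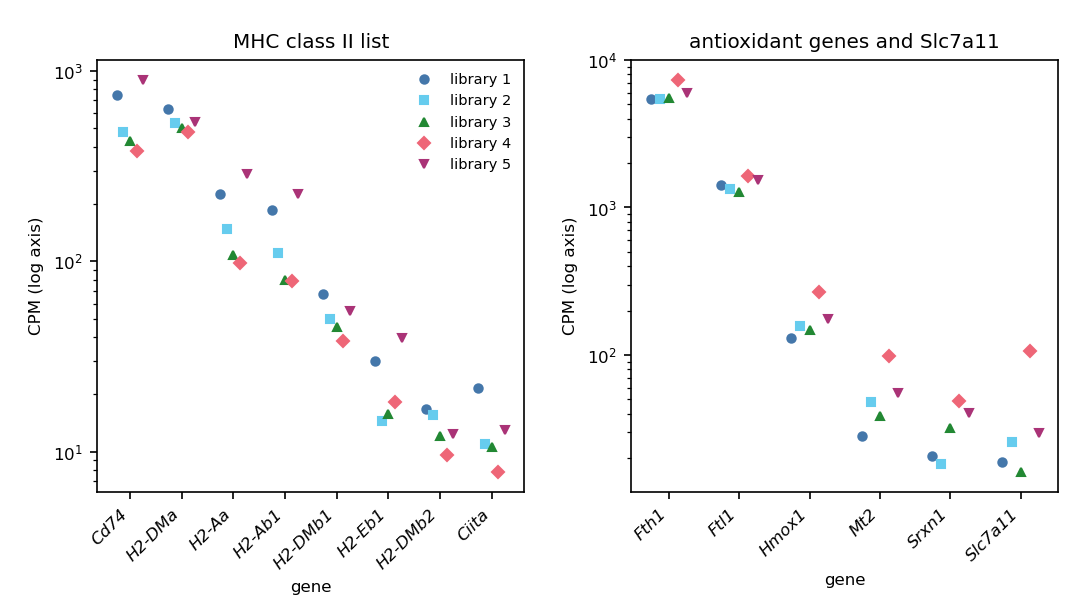
CPM of the 8 MHC class II genes (left) and of 6 further genes (right) in each of the 5 RAM libraries, on log axes with a symbol for each library. Libraries 1 and 5 lie above the others for Cd74, H2-Aa, H2-Ab1 and H2-Eb1, and library 4 lies highest for all 6 genes on the right. Those 6 were taken from genes highest in library 4.

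Markers of other antigen-presenting cells were read beside these values, and their part in the MHC class II spread was not tested. The 15 dendritic cell markers summed to 377, 356, 332, 489.8 and 651 CPM, highest in library 5. Cd24a alone, at 214, 212, 205, 327 and 485 CPM, gave most of each sum. It also gave nearly all of the rise from library 1 to library 5. Of the 15 markers 5 reached 10 CPM (Cd24a, Irf8, Ccl22, Clec9a and Bst2), 3 of the 5 were highest in library 5, and their median deviation from the gene mean was -0.18, -0.05, -0.40, 0.24 and 0.33 on the log2 scale in libraries 1 to 5. Clec9a, a receptor for dead cells on cross-presenting dendritic cells, was at 17.8, 22.4, 14.0, 24.2 and 25.8 CPM. Exons of Clec9a and of its neighbour Clec1b overlap on the same strand, so how their reads divide is uncertain. A further 7 of the 15 had means under 1 CPM, among them Xcr1, Flt3, Ccr7, Siglech and Cd209a. The 20 interstitial macrophage markers, a list that also holds H2-Ab1, summed to 1349, 1146, 1116, 1114 and 1291 CPM. Of the 20, 8 reached 10 CPM. Library 1 was the highest for 4 of these 8, library 4 for 3, and library 5 for 1, H2-Ab1 itself. Cx3cr1, a marker with few counts, was at 0.802 CPM in library 1 and 2.16 CPM in library 5 against at most 0.130 CPM in the others. The B cell gene Cd79a reached 10.6 CPM in library 5 and was at 0.970 CPM in library 1. The 18 lymphocyte markers summed to 22.5, 18.9, 8.70, 23.6 and 28.3 CPM in libraries 1 to 5. Of 16 MHC class I genes 13 reached 10 CPM, with a median SD of 0.14, and 4 of the 13 were highest in library 1, 5 in library 4 and 3 in library 5. Each library was the highest in 19.0% to 21.4% of all genes. B2m was at 1962 to 2293 CPM. The 1 gene of the list with an SD of at least 0.5 was Tap2, a peptide transporter encoded in the class II region, at 14.7, 17, 10.7, 6.98 and 26.2 CPM.

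Of 28 antioxidant and metal-responsive genes 22 reached 10 CPM, and 14 of the 22 were highest in library 4 and 2 lowest there. Over all genes library 4 was the highest in 19.3% and the lowest in 24.0%. Their median SD was 0.21, and their median deviation from the gene mean in library 4 was 0.18 on the log2 scale. Mt2, a metallothionein that binds zinc, was at 28.0, 48.3, 38.8, 98.4 and 55.3 CPM with an SD of 0.66, or 0.42 without library 4. Srxn1, sulfiredoxin, was at 20.6, 18.2, 31.8, 48.9 and 40.1 CPM, and Hmox1, the heme-degrading oxygenase, at 129, 156, 149, 267 and 176 CPM. Fth1 was at 5463, 5469, 5509, 7368 and 5945 CPM and Ftl1 at 1432, 1325, 1279, 1633 and 1543 CPM. Library 4 was the highest in all 5 genes, which are among the 14 that were highest there. Their rise therefore does not describe the whole list. Slc7a11, the cystine transporter that feeds glutathione synthesis, was listed with amino acid genes and was also highest in library 4, then in library 5, at 18.7, 25.8, 16.0, 106 and 29.5 CPM (chr3:49892526-50443614, minus strand). Library 4 was 4.78 times the median of the others, and the FPKM of Slc7a11 were 1.48, 2.02, 1.29, 8.67 and 2.30. The other 14 genes of the amino acid and stress list that reached 10 CPM had SDs up to 0.38. Fat1, an atypical cadherin, was also high in library 4, at 6.12, 7.86, 6.89, 28.7 and 3.51 CPM.

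The window of Mt2 (chr8:94172368-94172667, plus strand, GRCm38.p6, from RefSeq) is shown because Mt2 was the most variable of this list and its window holds letters of both elements after which the list is named. Capitals mark TGACNNNGC, the core of the antioxidant response element, and TGCGCNC, a form of the core of the metal response element, on either strand. Other forms of the metal response core were not searched, marked or counted.
Mt2: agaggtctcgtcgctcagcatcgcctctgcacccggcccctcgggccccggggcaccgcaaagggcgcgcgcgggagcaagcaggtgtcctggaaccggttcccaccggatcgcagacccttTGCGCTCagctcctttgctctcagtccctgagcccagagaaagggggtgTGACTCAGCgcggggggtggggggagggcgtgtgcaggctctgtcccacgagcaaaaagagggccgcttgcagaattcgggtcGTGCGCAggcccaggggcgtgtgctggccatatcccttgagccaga
Of the 22 members 17 had a window, with 23 windows among them. TGACNNNGC was found in 7 of the 23 windows (Gclm, Mt2, Prdx1, Slc30a1, Sod1, Srxn1 and Txnrd1), and in 12.4% of all windows. TGCGCNC was found in 6 of the 23 (Gclm, Mt1, Mt2, Slc30a1, Srxn1 and Tfrc), and in 15.4% of all windows. Members with a match included genes of little spread, such as Sod1, a superoxide dismutase, with an SD of 0.06.

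Of 31 genes of sterol synthesis and uptake 26 reached 10 CPM, with a median SD of 0.27, and none had an SD of at least 0.5. Of the 26, 13 were highest in library 4 and 7 in library 3, and 13 were lowest in library 1 and 7 in library 5. The shares of all genes were 19.3%, 21.2%, 15.6% and 24.4% in the same order. The median over the 26 genes of log2(CPM+1) less the mean of the gene was -0.26, -0.02, 0.11, 0.25 and -0.13 in libraries 1 to 5. Stard4, a carrier of cholesterol, was at 26.6, 44.6, 62.0, 56.1 and 49.9 CPM, lowest in library 1. Hsd17b7, a reductase of sterol synthesis, was at 27.2, 43.4, 31.7, 37.7 and 18.5 CPM, lowest in library 5. The regulators themselves varied less, with an SD of 0.14 for both Srebf1 and Srebf2. Hmgcs1, which makes the precursor of mevalonate, is named outside the rule for genes, after its values were seen, because its window held the letters searched. It was at 57.1, 85, 93.0, 82.4 and 63.0 CPM, low in libraries 1 and 5. The window lies at chr13:119690101-119690400 (plus strand, GRCm38.p6, from RefSeq), and capitals mark TCACNCCAC, the core of the sterol regulatory element, searched on both strands.
Hmgcs1: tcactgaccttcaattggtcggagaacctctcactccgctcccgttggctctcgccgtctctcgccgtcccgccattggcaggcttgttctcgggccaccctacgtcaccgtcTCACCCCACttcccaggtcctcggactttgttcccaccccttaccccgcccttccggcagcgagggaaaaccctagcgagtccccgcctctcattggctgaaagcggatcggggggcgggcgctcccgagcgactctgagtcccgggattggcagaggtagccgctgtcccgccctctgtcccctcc
Of the 26 genes 18 had a window, with 25 windows among them. The window of Hmgcs1 was the 1 match of the 25, where 1.24% of all windows held these letters.

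Among lists of function with at least 8 genes at 10 CPM or more, all others spanned less than those of MHC class II and sterol genes. The dendritic cell markers, at -0.40 to 0.33, are not among these lists. For the counts that follow, each library was the highest in 19.0% to 21.4% and the lowest in 15.6% to 24.4% of all genes. Of 26 heat shock and chaperone genes at 10 CPM or more, 12 were highest in library 2 and 8 in library 3, and 10 each were lowest in libraries 1 and 5. Hspa5, the chaperone BiP of the endoplasmic reticulum, was at 845, 1136, 1166, 995 and 856 CPM, and Hsph1, a cytosolic chaperone, at 82.1, 179, 146, 92.7 and 98.6 CPM. Of 48 cell cycle genes 24 were lowest in library 4, which was the lowest in 24.0% of all genes. Among the 24 was Bub1, a kinase of the spindle checkpoint, at 36.9, 41.8, 27.4, 18.2 and 42.7 CPM. Of 45 respiratory chain genes 23 were highest in library 1, as were 20 of 38 cytosolic ribosomal protein genes, by medians of 0.10 and 0.11 on the log2 scale. Of 52 lysosomal genes 17 were highest in library 4 and 19 in library 5, and their median SD was 0.13. Among cytokines and chemokines Ccl6 had the most counts, at 1173 to 1629 CPM (mean 893 FPKM), and 10 of 20 genes were highest in library 5, including Il1b, interleukin 1 beta, at 33.5, 19.0, 29.2, 39.2 and 46.4 CPM. Type I interferon genes (28 genes, median SD 0.20), immediate early genes (27 genes, 0.17) and genes of alveolar identity (22 genes, 0.15) had medians close to that of all genes, and none of these 3 lists held a gene with an SD of at least 0.5.

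**Figure D5:**
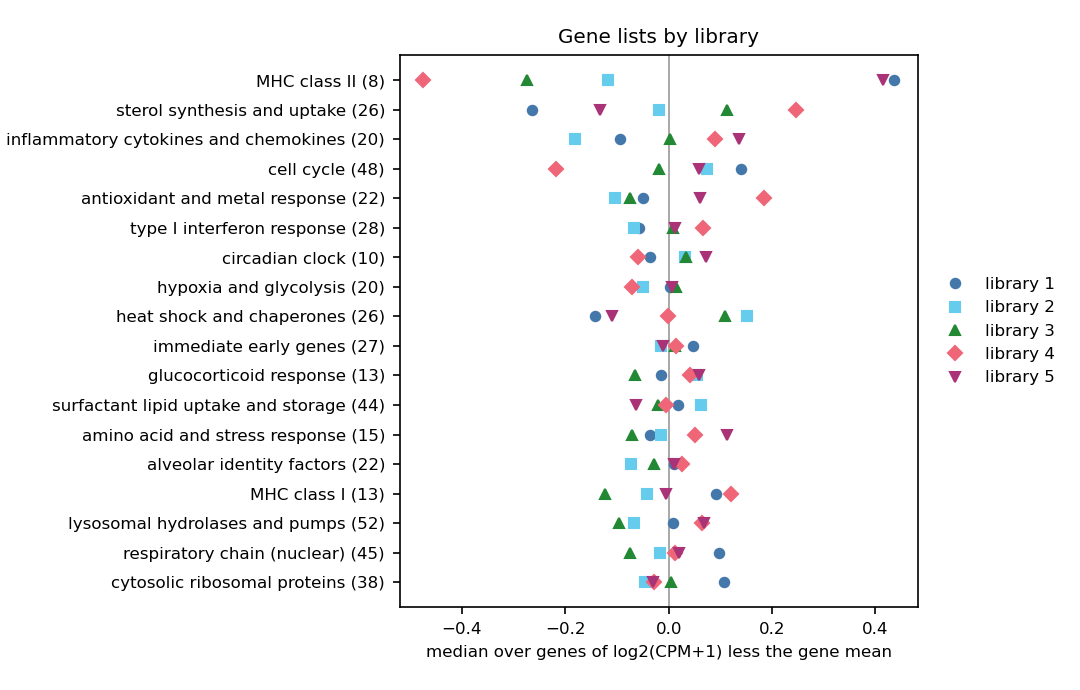
For 18 gene lists of function with at least 8 genes at a mean of 10 CPM or more (number of genes in brackets), the median over genes of log2(CPM+1) less the mean of the gene, 1 symbol per RAM library. Lists of cell type markers are not shown. The MHC class II list spans -0.47 (library 4) to 0.44 (library 1), the sterol list -0.26 (library 1) to 0.25 (library 4), and none of the other lists spans as much as either.

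Transcript length and base composition differed little between variable genes and the rest. The longest transcript had a median of 3413 bases in the variable genes and 3651 bases in all genes, and a median GC content of 51.7% and 48.9%. Of the 206 variable genes 201 had a transcript of the same name in GENCODE M21.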

How the data were processed

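The authors aligned paired reads of total RNA (Ovation RNA-Seq V2 libraries) to mm10 with TopHat 2.0.13, counted uniquely mapped reads per UCSC RefGene gene with HTSeq 0.6.1, and deposited these counts per library. They also deposited an FPKM table, for which their notes name Cufflinks 2.2.1. The strand setting is not given in the sources used here, so overlapping and antisense genes are uncertain. The deposited counts of the 5 RAM libraries were used as they stand. Lines that name no gene, which held 62.2% to 64.1% of all counts, and Rn45s were left out of totals.

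CPM, the SD of log2(CPM+1) with a pseudocount of 1 and principal components were computed in Python 3.11.15 (numpy 2.4.6, pandas 2.3.3) for genes with a mean of at least 10 CPM. Counting SD was the Poisson error at the counts of a gene. edgeR 4.0.16 in R 4.3.3 gave the coefficient of variation and TMM factors (0.978 to 1.02), and DESeq2 1.42.0 gave size factors. The calculation was tested on simulated data. Positions and transcripts came from GENCODE M21 (GRCm38, the authors' build), similarity from blastn 2.17.0 (at least 90% over 200 bases), promoters from RefSeq, and figures from matplotlib 3.10.9.

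The genes named were the 20 highest by mean CPM and by mean FPKM, the 50 with the largest SD, the 5 most abundant and 3 most variable of each list, all sorting, sex-linked and MHC class II genes, the 8 most variable of each set that varied together, and the 10 steadiest at 100 CPM or more. Genes printed outside this rule were chosen after their values were seen: Hmgcs1, Srebf2, Sod1, Cx3cr1, Vdr and Pfn1, the dendritic cell markers under 1 CPM, the other genes whose windows held a motif, and those at the threshold of 10 CPM. The members and gene lists were chosen with earlier results of these data known. A few genes that the rule names are not reported here.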

Additional observations from a re-analysis of the deposited data

Results flagged for a closer look

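In 13 of the 107 genes whose CPM are given, 1 library lay apart from the other 4, with a gap to its nearest neighbour of more than 0.71 of the whole range, the 95% value of Dixon's test for 5 samples. Chance alone would mark about 1 gene in 20, and 484 of all 8419 genes (5.75%) were marked. Many of the genes given were chosen for their spread, so their share is no evidence of its own. The gap took 0.945 of the range in Lyz1 (library 5, 368 CPM against a median of 16.4 CPM in the others), 0.911 in Atp2b4, 0.873 in Adgre5, 0.808 in Ctsk and 0.795 in Ptafr, all high in library 5. Library 4 was the high one in Slc7a11, where the gap took 0.850 of the range, and in Fat1 (0.827), Fth1 (0.747), Car4 (0.747) and Vwf (0.713). Ptprc was high in library 1, at 1233 CPM against a median of 1123 CPM, a small difference that took 0.917 of a narrow range. Mcm8 was high in library 2 (0.810) and Ighmbp2 in library 3 (0.795). The cause was not tested for any of them.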

How the results depend on the processing

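The number of genes with an SD of at least 0.5 followed the filter: 206 at a mean of 10 CPM became 1699 at 1 CPM, 2265 without a filter and 18 at 50 CPM, and it was 120 on log2(FPKM+1). Of the 50 most variable genes 5 were among the top 50 at 1 CPM, 5 without a filter, 7 at 50 CPM (a filter under which most of the 50 fall) and 29 on log2(FPKM+1). Without 1 library in turn 27 to 41 were kept, 27 without library 5 and 31 without library 4. The share of the 20 most abundant genes was 24.4% with Rn45s kept, 76.8% of summed FPKM and 21.0% of summed FPKM for transcripts of at least 200 bases. Under the other alternatives these 3 values stayed within 1.5 times or 1 SD, as did the median SD (0.133 to 0.232) and the share of the first component under those that gave it (35.0% to 48.4%). Libraries 4 and 5 lay both below the other 3 in 906 genes and both above in 1395 with median-of-ratios factors, and in 1076 and 1176 with upper-quartile factors. On log2(FPKM+1), 27 of 279 named genes moved in SD by over 1.5 times, against 6 with TMM, and leaving out 1 library moved 11 of 264 (library 2) to 34 of 268 (library 4), with 31 of 274 for library 5. The FPKM+0.1 scale, transcript limit, libraries 1 to 3 alone and the alternatives for lists and joint variation were chosen after seeing the data. No paired analysis was possible because 1 group was described and no groups were compared.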

Other observations

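Immediate early genes, which respond to stress and to tissue digestion, were read although transcription was blocked during digestion, and 27 of 30 reached 10 CPM. Fosl2, a partner of JUN, was at 669.6, 803, 746, 772 and 889.9 CPM, and Zfp36, which promotes decay of cytokine mRNA, at 601, 632, 705, 742 and 665 CPM. Their SDs were 0.15 and 0.12, close to the median of all genes. Jun itself varied more, at 121, 191, 171, 93.8 and 131 CPM, and Nr4a2, an orphan nuclear receptor, at 41.4, 31.3, 35.9, 66.8 and 52.1 CPM. Library 4 was the lowest for Jun and the highest for Nr4a2. Of 13 glucocorticoid-responsive genes at 10 CPM or more, Sgk1, a kinase of ion transport, was at 533, 562, 577, 655 and 611 CPM and Tsc22d3, the leucine zipper protein GILZ, at 64.6, 114, 80.9, 74.0 and 99.0 CPM. Mt2, which is in this list too, was its 1 gene with an SD of at least 0.5. Per2, of the circadian clock, was at 43.1, 44.0, 35.3, 28.7 and 62.0 CPM, highest in library 5.

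Of the 6 neutrophil and eosinophil markers at 10 CPM or more, 3 are best known from neutrophils and are given here, while 13 of the 20 in that list had means under 1 CPM. Cxcr2, a receptor of CXC chemokines, was at 19.5, 27.2, 41.3, 49.6 and 29.8 CPM, with an SD of 0.51, and Csf3r, the G-CSF receptor, at 87.9, 71.7, 85.1, 50.4 and 73.7 CPM. Mmp8, neutrophil collagenase, was at 60.4, 62.6, 89.9, 59.1 and 43.1 CPM. The highest library differed between the 3 genes. A pair of inflammatory genes was higher in libraries 4 and 5 than in the other 3, Ccl9, a CC chemokine, at 42.9, 52.4, 65.1, 86.4 and 88.1 CPM, and Cd14, the co-receptor for endotoxin, at 125, 106, 119, 159.8 and 189 CPM. Neat1, the RNA scaffold of paraspeckles, was at 1331, 1726, 1871, 2116 and 1848 CPM. It was lowest in library 1, as were Malat1 and Xist.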
